A study of Homo sapiens with 6 samples.

Results

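USF2 occupancy was described from the 2 USF2 ChIP-seq libraries, 1 from clone 4 and 1 from clone 5, among the 6 libraries of the series. The members were every peak that the authors called in these libraries, 9338 in clone 4 and 4369 in clone 5, of the 81170 peaks in the 4 deposited lists. Both clones derive from K562, a line grown from a human chronic myelogenous leukemia, and co-overexpressed Flag-PLAG1-S and USF2, and no cells without the 2 transgenes were profiled. The factors were expressed from a lentiviral vector whose bidirectional promoter also drives a blue fluorescent marker, so the antibody against USF2 pulled down the endogenous and the introduced protein together. Each immunoprecipitated library was sequenced at 42.5 M single-end reads of 50 bases, and each clone also gave an input of 55 M reads, the merged inputs being the control for every list. Each clone is 1 expanded cell, so the spread between the libraries is that of 2 clones, and more cells with a bound site cannot be told apart from more USF2 per cell at that site.

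USF2 is a basic helix-loop-helix leucine zipper factor that binds DNA as a dimer, with itself or with USF1. Its best known target is the E-box CACGTG, a palindrome that is also read by MYC-MAX, by the MiT/TFE family that controls lysosomal genes, and by the circadian factors CLOCK and BMAL1. USF2 is made in nearly all tissues and mostly acts from positions close to the starts of genes.

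The promoters with the strongest USF2 sites carried several copies of this sequence, and a few are shown here because the position and the number of copies are compared with occupancy further on. The sequences are from RefSeq on GRCh38.p14 and are written in the direction of the gene. Capitals mark CACGTG. The first set gives the 250 bases that end 1 base before the start of LAMP1 (chr13:113296989-113297238, plus strand), MCOLN1 (chr19:7522374-7522623, plus strand), RAD9A (chr11:67391736-67391985, plus strand) and BAX (chr19:48954625-48954874, plus strand). LAMP1 encodes an abundant glycoprotein of the lysosomal membrane, MCOLN1 the lysosomal cation channel mucolipin 1, RAD9A a subunit of the DNA damage checkpoint clamp, and BAX a protein that opens the outer mitochondrial membrane in apoptosis.
LAMP1: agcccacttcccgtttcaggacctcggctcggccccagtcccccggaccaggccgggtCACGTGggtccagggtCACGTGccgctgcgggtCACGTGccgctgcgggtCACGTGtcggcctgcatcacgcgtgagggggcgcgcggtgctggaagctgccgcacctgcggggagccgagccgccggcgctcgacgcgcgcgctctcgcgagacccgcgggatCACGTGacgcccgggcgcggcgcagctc
MCOLN1: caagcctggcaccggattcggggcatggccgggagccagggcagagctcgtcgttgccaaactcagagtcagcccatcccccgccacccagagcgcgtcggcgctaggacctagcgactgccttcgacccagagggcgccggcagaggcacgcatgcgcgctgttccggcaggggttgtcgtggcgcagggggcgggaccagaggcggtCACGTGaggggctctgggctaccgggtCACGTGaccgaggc
RAD9A: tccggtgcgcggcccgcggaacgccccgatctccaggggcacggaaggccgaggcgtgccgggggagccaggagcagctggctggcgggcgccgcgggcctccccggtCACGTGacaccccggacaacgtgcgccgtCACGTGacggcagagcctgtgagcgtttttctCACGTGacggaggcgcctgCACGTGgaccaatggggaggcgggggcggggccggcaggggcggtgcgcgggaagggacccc
BAX: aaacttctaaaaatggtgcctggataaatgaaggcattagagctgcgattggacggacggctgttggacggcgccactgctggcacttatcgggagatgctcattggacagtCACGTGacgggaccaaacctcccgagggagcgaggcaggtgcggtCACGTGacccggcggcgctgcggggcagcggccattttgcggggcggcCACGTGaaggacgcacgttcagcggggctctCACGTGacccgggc

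A second set gives the 30 bases around the E-box nearest to the summit in 4 more promoters of the strongest sites. They are AP5Z1 (chr7:4775574-4775603, plus strand), AMDHD2 (chr16:2520315-2520344, plus strand), RCBTB1 (chr13:49585571-49585600, minus strand) and SPPL3 (chr12:120904406-120904435, minus strand).
AP5Z1: catgtgatgcggCACGTGacgcagccacgt
AMDHD2: gggcgcggcggtCACGTGgcgcgccgcttc
RCBTB1: ggcggccggggcCACGTGacccggcgggcc
SPPL3: cggggcgcgcatCACGTGagcgtgttttgg

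Another set shows stretches of 30 bases at the summit in 3 promoters whose 300-base window held no CACGTG. These are CRY1 (chr12:107093599-107093628, minus strand), EBP (chrX:48521755-48521784, plus strand) and USF2 itself (chr19:35268904-35268933, plus strand), where capitals mark CACATG, a variant E-box that lay 12.5 bp from the clone 4 summit.
CRY1: gccggtggtcacgaggggagcgcgccctcc
EBP: cgggccgccttcttcgcttcaccattggct
USF2: gcatctcctcctCACATGaccccactgttt

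USF2 sites shared by the clones were counted wherever a clone 4 peak overlapped a clone 5 peak by at least 1 bp, which gave 2409 sites. They made up 25.8% of the clone 4 list (95% Wilson interval 24.9% to 26.7%). Seen from clone 5, 2433 peaks overlapped, or 55.7% of its list (54.2% to 57.2%), and 50 clone 4 peaks met more than 1 peak of clone 5. These intervals, like all those that follow, cover counting error only. The summits of shared sites lay a median of 20 bp apart in the clones, with quartiles of 8 and 50 bp, and 31.4% lay within 10 bp and 87.6% within 100 bp of each other.

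Shared sites were stronger and wider than the peaks of a single clone. The rule itself favours this, since a stronger peak passes the threshold in both lists more readily and a wider one overlaps more readily. How much of the differences comes from the rule was not tested. The fold enrichment, which is the ratio of fragments over the summit to the local background of the inputs with 1 added to both, had a median of 6.80 in clone 4 and 5.41 in clone 5 at shared sites. The 6929 peaks found only in clone 4 had a median of 3.97, and the 1936 found only in clone 5 had a median of 4.06. In width, shared sites had medians of 308 bp in clone 4 and 240 bp in clone 5, against 190 and 185 bp for the peaks of 1 clone. The depth behind these values was modest, with a median of 38 and 29 fragments over a shared summit in clones 4 and 5, and 18 over a summit found in either clone alone.

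Most shared sites were weaker in clone 5. The fold was lower there at 78.2% of the sites (95% Wilson interval 76.5% to 79.8%), and the median ratio of clone 5 to clone 4 was 0.824, a log2 difference of −0.28. The order of the sites nevertheless held, as 17 of the 20 strongest peaks of clone 4 were among the 20 strongest of clone 5, and 413 of the strongest 500. Across the 2409 sites, which share 1 control, Pearson's r of the log2 folds was 0.903 and Spearman's rho 0.866, as a description. With 1 library per clone, a difference between clones cannot be told apart from a difference between immunoprecipitations.

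**Figure D1:**
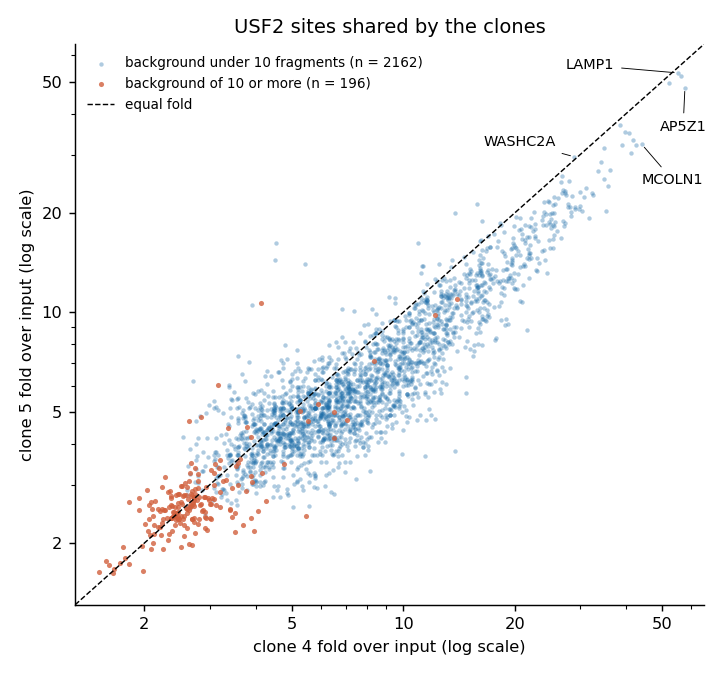
Fold enrichment over input of each USF2 site shared by the clones, clone 4 on the x axis and clone 5 on the y axis, both on log scales; each point is 1 site on chromosomes 1 to 22, X or Y, orange points have a local background of 10 or more fragments, and the dashed line marks equal folds. Most points lie below the line, in keeping with the median ratio of 0.824, and the orange points lie at low folds close to it.

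The strongest site of all, by the geometric mean of the folds in the 2 clones, was that of LAMP1. It had a fold of 55.1 in clone 4, from 244 fragments over the summit, and of 53.1 in clone 5, from 228 fragments. The summits lay 8 bp apart and the clone 4 summit was 153 bp upstream of the start, inside a run of 4 E-boxes at 192, 176, 159 and 142 bp upstream, counted from the start to the first base of each. The 6 copies of CACGTG in its 300-base window were the most of any promoter shown above.

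The next sites included genes of protein targeting and membrane traffic. GET4, part of the complex that hands tail-anchored proteins to the endoplasmic reticulum, had folds of 56.2 and 52.2 in clones 4 and 5. AP5Z1, a subunit of the late endosomal adaptor complex AP-5, had folds of 57.6 and 47.9. AMDHD2, a deacetylase of the hexosamine pathway, had folds of 52.2 and 49.4. The clone 5 folds of these genes, like that of LAMP1, were all lower than their clone 4 folds.

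Several of the other strong sites lay at lysosomal genes. MCOLN1 had folds of 44.1 and 32.2 with a summit 34 bp upstream of its start, between E-boxes at 41 and 14 bp upstream. ATP6V0D1, a subunit of the proton pump that acidifies lysosomes, had folds of 41.2 and 30.3. CLCN7, the chloride-proton exchanger of lysosomes, had folds of 34.3 and 28.6, and NAGPA, which uncovers the mannose 6-phosphate tag of lysosomal enzymes, 34.9 and 25.3. Each of these genes had a higher fold in clone 4 than in clone 5.

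The rest of the 20 strongest sites belonged to genes of varied function. RAD9A had folds of 42.6 and 32.0, and BAX 38.9 and 32.2. ATG3, the conjugating enzyme that attaches LC3 to lipid, shared its site with the adjacent gene SLC35A5, with folds of 35.8 and 24.1. WASHC2A, a subunit of the endosomal WASH complex, was the only 1 of the 20 that was not lower in clone 5, with folds of 28.9 and 29.6. Other members were TULP4, RCBTB1, SPPL3, UBE2Q1, GTPBP6, HOXC13 and the pair HSDL1 and DNAAF1, with clone 4 folds from 31.1 to 41.9 and clone 5 folds from 23.8 to 37.0. All 20 sites lay within 1 kb of the start of a coding gene.

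The share of shared USF2 sites at coding gene starts was 55.6%, or 1310 of the 2358 sites on chromosomes 1 to 22, X and Y (95% Wilson interval 53.5% to 57.6%), with a summit within 1 kb of a start. When the sites were moved by 10 kb, the share was 5.22%. Starts were those of the RefSeq promoter table for 15842 of 20033 coding genes, and for the other 4191, which include the genes of chromosome 8, either end of the gene was taken. The share was 34.2% of all clone 4 peaks and 37.4% of all clone 5 peaks, and among peaks of a single clone it was 26.8% in clone 4 and 13.7% in clone 5.

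The share grew with fold. When the sites were divided into 10 groups of nearly equal size by mean fold, it was 19.1% in the weakest group (95% Wilson interval 14.6% to 24.6%) and 87.3% in the strongest (82.4% to 90.9%). In the weakest group, 172 of the 236 sites had a clone 4 background of 10 or more fragments. The next group had 13 such sites among 236, and its share was 41.5% (35.4% to 47.9%). A clone 4 peak near a start was also found in clone 5 more often than 1 of like fold elsewhere. For folds of 6 to 10, 78.3% of the 572 clone 4 peaks near starts were shared (74.8% to 81.5%), against 58.5% of the 506 elsewhere (54.2% to 62.7%). Under a fold of 4 the shares were 10.6% and 9.91%, with overlapping intervals.

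Summits lay just upstream of the start. Of the 1079 sites near a start of known strand, 65.8% had their summit upstream, the median position was 37 bp upstream, and 49.3% fell between 100 bp upstream and 100 bp downstream. Some sites lay near 2 genes, as 186 sites had exactly 2 coding genes within 1 kb. Of the 143 such sites at which both starts had a known strand, 125 lay at a divergent pair, in which the genes are read away from each other, as at ATG3 and SLC35A5. The share of divergent pairs among all coding starts this close together was not counted, so this count has no background and is not a trait of USF2 sites.

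**Figure D2:**
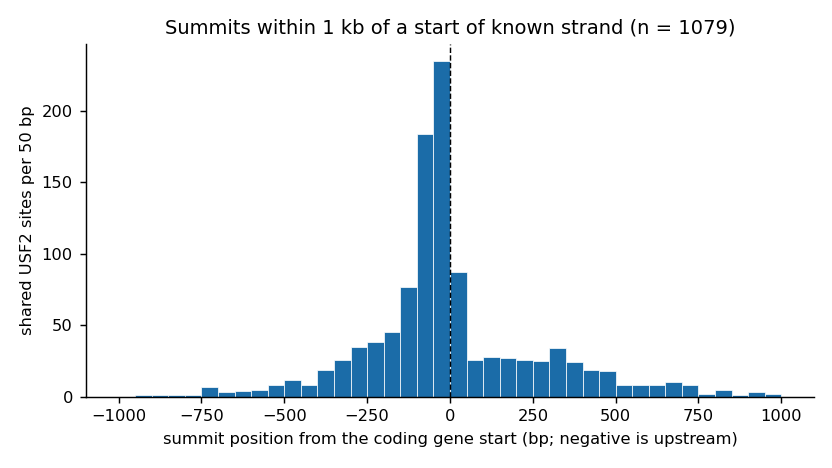
Number of shared USF2 sites per 50 bp, by the position of the clone 4 summit from the nearest coding gene start, for the 1079 sites within 1 kb of a start of known strand. Negative positions are upstream, and the counts peak in the 100 bp before the start, around the median of 37 bp upstream.

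Away from coding starts, 206 sites, 8.74% of the shared sites, lay within 1 kb of the start of a gene of another class, or of either end where no start was tabulated. A further 410 sites, or 17.4%, lay inside coding genes, 123 (5.22%) inside other genes and 309 (13.1%) between genes. Exons and introns were not told apart here. Sites at coding starts had the highest folds, with medians of 8.53 in clone 4 and 6.23 in clone 5, against 5.35 and 4.71 for sites inside coding genes and 5.79 and 4.87 between genes.

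Width followed strength. Over all USF2 peaks the median width was 209 bp in clone 4 and 212 bp in clone 5, with quartiles of 167 and 286 bp in clone 4 and of 169 and 285 bp in clone 5. Summits sat at the middle of the peaks, at a median of 49.2% of the width in clone 4 and 49.0% in clone 5. Across shared sites the width grew with the fold, with a Spearman's rho of 0.471 in clone 4 and 0.493 in clone 5. From the weakest to the strongest of the 10 groups by fold, the median clone 4 width rose from 256.5 to 467 bp and the distance between the summits of the clones fell from 75 to 8 bp. The weakest group held mostly sites of high background, and in the next group the width was 250.5 bp and the distance 48.5 bp.

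USF2 peaks were narrower than those of PLAG1-S from the same clones, with median widths of 209 and 212 bp against 270 and 261 bp. The difference was −61 bp within clone 4 and −49 bp within clone 5. An exact permutation test over the 4 libraries, two-sided, gave p = 0.333, the smallest p that 2 libraries against 2 allow. The share of peaks near coding starts was 34.2% and 37.4% for USF2 and 31.9% and 37.8% for PLAG1-S in clones 4 and 5, so the groups overlapped, and the exact permutation test gave p = 1. The weakest USF2 peaks had q-values close to 0.05, whereas the PLAG1-S lists stopped close to 0.01. The PLAG1-S lists also had higher median folds, 5.21 and 5.00 in clones 4 and 5 against 4.21 and 4.49 for USF2. Since width grew with fold at shared USF2 sites, the width difference cannot be read as a property of the factors. The part of strength or of the separate immunoprecipitations in it was not tested.

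The E-box in promoters with a shared USF2 site was counted in the 300-base windows of RefSeq, from 250 bases before to 50 bases after the start of a coding gene, on both strands. Of the 779 windows with a shared summit, 672 held CACGTG, or 86.3% (95% Wilson interval 83.7% to 88.5%). Of the 20725 windows with no USF2 summit in either clone 4.51% held it (4.24% to 4.80%), and of all 22077 windows 8.32%. The windows with a shared summit were richer in G and C, with a median of 69% against 61.7% for those with no summit. Among windows of 65% to 73% G and C, the shares were 89.8% of 314 and 4.54% of 4845.

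The E-box was most frequent at the strongest sites. It was in 60.9% of the windows whose shared sites had a mean fold under 5, in 85.1% of those at 5 to 10, and in 94.6% of those at 10 or more. Windows with a summit in clone 4 alone held it in 39.5% of cases (35.4% to 43.8%), and the 26 windows with a summit in clone 5 alone in 34.6% (19.4% to 53.8%). The sequence CATGTG, or CACATG on the other strand, was in 38 of the 107 windows with a shared summit and no CACGTG (35.5%, 27.1% to 44.9%), the USF2 promoter being 1 of them. With or without CACGTG, it was in 12.3% of all windows with a shared summit, 8.79% of those with no USF2 summit and 8.96% of all windows.

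Not every E-box was occupied. Of the 1836 windows with CACGTG, 36.6% had a shared summit (95% Wilson interval 34.4% to 38.8%), against 0.53% of the 20241 windows without it. The share was 32.7% with 1 copy, 69.4% of 157 windows with 2 copies and 76.7% of 30 windows with 3 or more, the last pair having overlapping intervals (61.8% to 76.1% and 59.1% to 88.2%).

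The bases beside the E-box also differed. Among windows with a single copy, a shared summit was found in 17.8% of the 1096 without GT next to CACGTG on either strand (15.6% to 20.2%), in 62.1% of the 480 with it on 1 side (57.7% to 66.3%) and in 64.4% of the 73 with it on both sides (52.9% to 74.4%). Reading each E-box on both strands, GT was the flank in 37.0% of cases in windows with a shared summit and in 8.84% in windows with no summit. GTCACGTG was in 58.7% of the windows with a shared summit, beside 0.75% of those with no USF2 summit and 3.07% of all windows.

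Summits lay close to the E-box. They lay a median of 8.5 bp from the centre of the nearest CACGTG in clone 4 and 9.5 bp in clone 5. Shared sites in windows with 2 or more copies had median folds of 19.7 and 14.3 in clones 4 and 5. With 1 copy, the medians were 8.54 and 5.96 without a GT flank, 11.6 and 9.04 with it on 1 side, and 9.81 and 7.65 with it on both sides, so the folds did not rise with each flank. Sites with no CACGTG 6.98 and 5.37. The E-boxes of windows with a shared summit had a median position of 59 bp upstream of the start, against 94 bp for those in windows with no USF2 summit.

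Coding genes with a shared USF2 site within 1 kb numbered 1445 of 20033, or 7.21%. In clone 4 alone the count was 3087 genes (15.4%) and in clone 5 alone 1672 (8.35%). These shares are the background for the gene lists below, which were counted in the same way. The lists are described by their counts, and no test of a list was made.

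Lysosomal genes had the highest shares among the lists, apart from the short list built on genes that the study discusses. Of 49 lysosomal hydrolases and cofactors, 21 had a shared site (42.9%, beside 7.21% of all coding genes), as did 13 of 30 lysosomal membrane proteins (43.3%) and 9 of 24 subunits of the V-ATPase, the lysosomal proton pump (37.5%). Together these were 43 of 103 genes, and the clone 5 list alone gave the same count. The median clone 4 folds of the shared members were 13.2, 17.8 and 16.1 in the 3 lists, against 8.94 over all 1445 genes.

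HEXA, a subunit of the hexosaminidase that is lost in Tay-Sachs disease, had folds of 32.6 and 22.7 in clones 4 and 5. GAA, the enzyme that breaks down lysosomal glycogen, had 27.9 and 20.8, and CTSD, the aspartic protease cathepsin D, 21.8 and 12.7. SUMF1, which activates the sulfatases, had 20.2 and 19.4. For each of these enzymes the fold was higher in clone 4.

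Other lysosomal enzymes had no peak near a start in either clone. They included LIPA, the acid lipase, and the cathepsin genes CTSL and CTSS. Of the 11 hydrolase genes whose window held CACGTG, 10 had a shared site, as did 7 of 7 among the membrane proteins and 4 of 4 among the V-ATPase subunits. Over all coding genes with CACGTG in a window, 693 of 1727 had a shared site.

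Among membrane proteins and pump subunits, the folds beside those of LAMP1 and MCOLN1 were lower. CLN3, a lysosomal membrane protein of neuronal ceroid lipofuscinosis, had folds of 18.9 and 13.6, and CD63, a tetraspanin of late endosomes, 16.4 and 9.54. LAMP2, NPC1 and the catalytic subunit gene ATP6V1A had no peak near a start in either clone. ATP6V0B had folds of 24.3 and 18.5, and ATP6V0E1 19.97 and 18.2. The range over the 9 V-ATPase genes was 11.95 to 41.2 in clone 4 and 8.15 to 30.3 in clone 5, so each of them lay above the medians of all genes, 8.94 and 6.46.

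The signalling genes that act at the lysosomal surface were counted apart. Of 26 genes of lysosomal mTORC1 signalling, 9 had a shared site (34.6%). RRAGC, a Rag GTPase that recruits mTORC1, had folds of 25.7 and 21.3, and FNIP1, the partner of folliculin, 24.9 and 15.6. FLCN, folliculin itself, had 15.3 and 9.94, and TSC2, the inhibitor of RHEB, 16.6 and 10.9 at a site shared with NTHL1. RHEB, the activator of mTORC1, had 11.7 in clone 4 and 5.10 in clone 5. MTOR and RPTOR had no peak near a start.

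Autophagy and endosomal genes were bound in smaller shares. Of 47 genes of the core autophagy machinery, 10 had a shared site (21.3%). Below ATG3, the largest were UVRAG, an endosomal regulator of the class III phosphoinositide kinase, with 19.7 and 13.9, SNAP29, a fusion SNARE, with 13.95 and 11.0 over a high clone 4 background of 16.1 fragments, and GABARAP, a member of the LC3 family, with 13.1 and 11.4. The SNAP29 site was shared with PI4KA. Of 51 endosomal adaptors and sorting proteins, 11 had a shared site (21.6%), led by AP5Z1, then BLOC1S1 with 24.7 and 18.8 and AP4M1 with 16.2 and 14.1. The BLOC1S1 site also lay within 1 kb of ITGA7, and the promoter window of MCM7 held a summit with the same folds as AP4M1. ULK1 and BECN1, which start autophagosome formation, had no peak near a start.

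Factors that read the same E-box were examined next. Of 22 USF, MiT/TFE and MYC-MAX-MLX factors, 5 had a shared site (22.7%). MLX, the partner of the glucose-sensing MondoA, had the highest folds, 17.5 and 17.3. MAX, the partner of MYC, had 10.6 and 7.71, and MLXIP, which encodes MondoA, 7.95 and 6.85. USF2 had 10.0 and 7.54 at its own promoter, with clone 4 and clone 5 summits 56 and 33 bp from the start. USF1, MYC and TFE3 had no peak near a start, and TFEB had 1 in clone 4 only.

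The list of 25 circadian clock genes had 6 with a shared site (24%). NR1D2, a nuclear receptor that represses clock genes, had folds of 27.2 and 18.3, and TEF, a clock output factor, 24.5 and 21.8 at the stronger of its 2 sites. CRY1, a repressor of CLOCK and BMAL1, had 13.3 and 10.6 in a window without CACGTG. BHLHE40 had 10.3 and 6.04. Of the PER genes, which encode repressors of CLOCK and BMAL1, PER3 had a shared site with folds of 5.87 and 4.22, and PER1 and PER2 had no peak near a start in either clone.

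The metabolic lists differed among themselves. Among 25 glycolysis genes 4 had a shared site (16%), with ENO1 at 15.01 and 11.8 and GAPDH at 8.57 and 7.20, although 11 had a clone 4 peak. Of the 6 glycolysis genes with CACGTG in a window, 1 had a shared site, and LDHA and HK2, both with the sequence, had a peak in clone 4 only. Of 30 genes of cholesterol and fatty acid synthesis 7 had a shared site (23.3%), with INSIG1 at 15.8 and 11.8 and SC5D at 13.95 and 10.3. FASN, fatty acid synthase, had 5.68 and 3.70.

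K562 cells have erythroid features, and the genes of heme synthesis and iron handling were a list of their own. Of 31 genes, 5 had a shared site (16.1%). SLC25A38, a mitochondrial carrier needed for heme synthesis, had folds of 14.3 and 11.6. The ferritin genes FTH1 and FTL had 9.17 and 11.2, and 5.11 and 6.63, both higher in clone 5. TFRC, the transferrin receptor, had 3.58 and 3.02. ALAS2, the erythroid enzyme that starts heme synthesis, had no peak near a start.

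For shared sites, genes of translation and respiration were near or under the background. Of 88 cytosolic ribosomal protein genes 7 had a shared site (7.95%). In clone 4 alone, 33 had a peak (37.5%, beside 15.4% of all coding genes), and in clone 5 alone 9 had one (10.2%, beside 8.35%). RPL23 had the largest folds of this list, 13.1 and 8.63, and RPL13A had 10.7 and 7.78. Of 37 nuclear genes for complex I subunits 2 had a shared site (5.41%), NDUFA7 and NDUFS1, at sites shared with RPS28 and EEF1B2. None of 392 olfactory receptor genes had a peak near a start in either clone, which allows a share of up to 0.765%.

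HOX genes and a list built on the genes that the study discusses were described last. Of 39 HOX genes 9 had a shared site (23.1%). HOXC13 had folds of 33.6 and 26.7, HOXB7 25.1 and 19.2, and HOXC9 16.2 and 13.1. HOXC10 had 11.5 in clone 4 and 4.72 in clone 5. CACGTG was in a window of 9 of the 20 HOX genes with a window, but only 1 of these 9, HOXD1, had a shared site, with folds of 4.16 and 3.94.

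A list of 10 genes held those that the study discusses and MSI1, the paralog of MSI2, and of these 6 had a shared site, and because the study chose most of them from these libraries this count is not independent evidence. SOCS2, an inhibitor of cytokine signalling, had folds of 20.4 and 15.4, with summits 905 and 929 bp from an end of the gene. DNMT3A, a DNA methyltransferase, had 14.99 and 11.1 at a start that lies inside the gene, with the summits 133 and 85 bp from it. HOXB4, a homeobox factor, had 12.6 and 10.8.

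MSI2, an RNA-binding protein of blood stem cells, had folds of 6.33 and 4.27, from 28 and 18 fragments. The summits were 485 and 473 bp from its tabulated start, and the clone 4 peak ranked 1561 of 9338 and the clone 5 peak 2513 of 4369. CYP1B1 had a peak in clone 5 only, with a fold of 4.06, 1322 bp from a gene end and so outside the 1 kb limit. USF1, PLAG1 and MSI1 had no peak within or near the gene in either clone.

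By gene class, coding genes had the highest share with a shared site. It was 2.05% for 18303 lncRNA genes, 4.51% for 443 tRNA genes, 1.62% for 1913 miRNA genes and 0.31% for 15580 pseudogenes, beside 7.21% for coding genes. Many noncoding genes lay beside a coding start, since only 113 of the 376 lncRNA genes with a site had none within 1 kb. Of the 20 tRNA genes with a site, 17 lay away from coding starts. On chromosome 1 near 161.4 Mb, 14 of the 20 fell at 6 sites with a clone 4 background of 12.1 to 18.9 fragments and clone 4 folds of 2.36 to 3.18. Without sites of such high background, 6 of the 443 tRNA genes (1.35%) had a site. MIR451A, a miRNA made in erythroid cells, was among the 31 miRNA genes, with folds of 13.0 and 11.2 and no coding start within 1 kb, and MIRLET7I had 6.29 and 5.22.

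The chromosomes differed in how many sites they held. Per 100 coding genes, chromosome 22 had 39.5 shared sites, chromosome 21 had 21.8, chromosome 16 had 18.03 and chromosome 9 had 17.5, while the X chromosome had 5.66. Chromosome Y had none, with 2 peaks in clone 4 and 4 in clone 5. On chromosome 22 most sites were away from gene starts, since 24.7% of its 178 lay within 1 kb of one, and 9.76% of its coding genes had a site, close to the 9.84% of chromosome 16.

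A pair of blocks held many of these sites. On chromosome 9 from 130 to 132 Mb there were 53 sites, with a median fold of 2.63 in clone 4 and 2.51 in clone 5, and on chromosome 22 from 18 to 25 Mb there were 137 sites, with medians of 3.09 and 3.08. The 2168 sites outside the blocks had medians of 7.23 and 5.68. The local background of the inputs moved with this, with a clone 4 median of 17.3 fragments in the first block and 10.9 in the second against 4.02 elsewhere. Only 17.0% and 18.2% of the sites in the blocks lay near a coding start, against 58.9% of the rest. The blocks include ABL1 and BCR, the genes joined by the amplified translocation of K562 cells, and the part of the input background in these counts was not tested.

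The genes with the most shared sites inside or within 1 kb lay in these blocks. They were FIBCD1 with 15 sites, RSPH14 with 14, LAMC3 with 11, and BCR and GNAZ with 9 each, and every one of these sites had a background of 10 or more fragments. Their clone 4 folds were between 2.06 and 3.70. GNAZ lies wholly inside RSPH14, so its sites were also counted for RSPH14, and BCR overlaps the end of RSPH14. Repeated sites were rare among the other genes, and in all 1704 of the 1872 coding genes with a shared site inside or within 1 kb had a single one.

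A few sites differed strongly between the clones. Among shared sites with a fold of at least 10 in 1 clone, the lowest ratios of clone 5 to clone 4 were at a histone gene cluster with H2AC20 (13.8 and 3.80), at RASA4 (11.5 and 3.67), inside MCF2L (14.7 and 5.68), and at TBC1D8 (12.2 and 4.76) and AMMECR1L (21.6 and 8.81). The highest were at 2 sites on chromosome 22 whose nearest coding gene was GGT1 (4.53 and 16.3, and 4.51 and 14.4), at CTAGE9 (3.89 and 10.5), at a site on chromosome 21 nearest to LOC102723475 (4.12 and 10.7), and inside IER2, 4065 bp from its start (5.41 and 13.98). At the IER2 site the summits of the clones were 750 bp apart, and at the stronger site near GGT1 471 bp, beside a median of 20 bp over all shared sites. The clone 5 peak paired with this IER2 site was 1403 bp wide, against 377 bp for the clone 4 peak. IER2 had 3 shared sites, with clone 4 folds of up to 16.99 and clone 5 folds of up to 13.98. The unequal folds at IER2 thus belong to this pair of peaks, matched by an overlap of at least 1 bp, and not to the gene.

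The strongest peaks of a single clone were below the strongest shared sites, but near or above the upper quartile of the folds of shared sites, 10.6 in clone 4 and 7.85 in clone 5. In clone 4 they were those nearest VPS13C, SCO2, UNCX, LRRC74B and NPIPB15, with folds from 10.5 to 11.4. In clone 5 they were nearest LOC102724813, PPIAL4A, FAM246A and OR4F3, with folds from 8.66 to 13.0. The VPS13C peak, from 45 fragments, lay 55 bp from a start, whereas none of the 5 in clone 5 lay within 1 kb of one.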

How the data were processed

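ChIP-seq libraries for USF2 and PLAG1-S and input libraries were made from K562 clones 4 and 5. Per the labels and processing notes, reads were trimmed with cutadapt, aligned with HISAT2 2.0.4 to hg38 and handled with SAMtools and bedtools, and MACS2 peaks were called by the authors for 1 immunoprecipitated library at a time, with the inputs of both clones merged as control. In the deposited lists the fold is a ratio of enrichment at the summit, with 1 added to fragments and background, and the −log10 p and −log10 q values are those of MACS2's Poisson model. The score deposited by the authors repeats the −log10 q on another scale and was not used. The USF2 lists end at q-values of 0.0494 and 0.0477. A list depends on this threshold and on the enrichment reached.

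Fragment numbers at the summits, and the input background there, were worked out from fold and −log10 p for 100% of the USF2 peaks, within 0.001 of the deposited −log10 p. The smallest summit held 11 fragments in each clone. Shared sites keep clone 4 coordinates, and the 51 on other sequences entered no gene count. Genes, starts and promoter windows are from RefSeq (GRCh38.p14). A gene of the clock list, FBXL21P, was not matched. Shares carry 95% Wilson intervals, and a floor of 3 counts stands for 0. Peaks and genes are not replicates, so the test over libraries was an exact permutation test. Libraries of the same number come from the same clone, which pairs USF2 with PLAG1-S.

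The members, the 16 gene lists and the rules were chosen with earlier results of these data known. The genes named are those nearest the 20 sites of highest mean fold, the genes the study discusses with MSI1, the largest folds of each list, the 5 coding genes with the most sites, the 5 strongest peaks of each clone alone, and the sites with the most unequal folds. Members named for having no peak, the noncoding genes, the 2 blocks and GC range were chosen after their values were seen. Alternatives were stricter q, other overlaps, windows and gene ends, each clone alone, other motifs and −log10 q for fold. Scripts were tested on simulated data. Python 3.11.15, numpy 2.4.6, pandas 2.3.3, scipy 1.17.1 and matplotlib 3.10.9 were used. Sequence at peaks outside the promoter windows was not used here. A few genes that the rules select are not reported here.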

Additional observations from a re-analysis of the deposited data

Results flagged for a closer look

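Shared USF2 sites outside the chromosomes used for genes were noted because a signal appeared in data that no comparison used. There were 51 shared USF2 sites on unplaced, unlocalized and mitochondrial sequences, 23 of them on 1 unlocalized sequence and 2 on the mitochondrial genome. There were no control immunoprecipitations, and each site had passed the authors' threshold against the inputs in both clones.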

How the results depend on the processing

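Of 67 values under alternatives, 42 counted as unchanged. Counts had to stay within 1.5 times the main value, and shares and widths within the spread of the clones. The share of sites with a lower fold in clone 5 had to stay within its counting error. Differences between USF2 and PLAG1-S had only to keep their sign. The values with the clone as a block equal the main values by construction, so they could not change. A −log10 q of at least 10 in each clone left 1063 sites, 72.96% of them at coding starts, and 885 genes, and gave a mean of the median widths of 304 bp in place of 210.5. The share at starts was 57.8% with summits within 100 bp of each other, 39.4%, 50.4% and 61.0% within 250, 500 and 3000 bp, 52.9% with either end of every gene, and 64.3% with genes of all types. GTCACGTG was in 58.7% of the windows. The clone 5 value was the lower at 82.2% of sites by −log10 q. Chosen after seeing the data, leaving out sites with a background of 10 or more gave 59.2% at starts, 80.7% of sites with a lower fold in clone 5, and 20.8 sites per 100 coding genes on chromosome 22 in place of 39.5. Only genes with a tabulated start gave 46.2%.

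With 1 clone alone, the lowest and highest values were 4369 and 9338 sites, 34.2% and 37.4% at starts, 1672 and 3087 genes, 67.6% and 84.8% of windows with CACGTG, and 94.0 and 163 sites per 100 coding genes on chromosome 22. The count of genes near a site thus rested on requiring both clones. With the clone as a block, the pairing of USF2 with PLAG1-S gave mean differences of −55 bp in width and 0.995 percentage points in the share at starts. Within the clones these ranged from −61 to −49 bp and from −0.388 to 2.38 percentage points, the sign turning in clone 5 alone, without replicate 1. The causes were not tested. Depth limits weak sites, where a peak rests on as few as 11 fragments.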
